A study of Mus musculus with 8 samples.

Results

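The genes followed here set the pace of the G1 phase of the cell cycle: the D cyclins Ccnd1 and Ccnd2, the cyclin-dependent kinase (CDK) inhibitors Cdkn2a, Cdkn2b, Cdkn2c, Cdkn1a, Cdkn1b and Cdkn1c, and Trp53 with its ubiquitin ligase gene Mdm2. These 10 genes were taken by their names out of 55450 gene identifiers in the count files. In all, 9 of the 10 passed the filter on low counts, among 14641 genes that did, and Cdkn1c had 0 counts in each of the 8 libraries. PyMT-1099 cells are mouse breast cancer cells, derived from a tumour driven by polyoma middle T antigen. Polyadenylated RNA of 2 libraries per group was sequenced from AGPS KO cells treated with TGFβ, untreated AGPS KO cells, parental cells treated with TGFβ and untreated parental cells, where Agps encodes a peroxisomal enzyme of ether lipid synthesis and treatment was 2 ng/ml for 10 days. All cells grew in high-glucose medium with serum. All 4 knockout libraries carry the same line code, SCC10, and no second knockout line was analysed here, so what is called a knockout difference is the difference of this line from its parental line.

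Cells leave G1 when D cyclins switch on the kinases CDK4 and CDK6, which phosphorylate the retinoblastoma protein and its relatives and so free E2F transcription factors. The INK4 inhibitors (p16Ink4a from Cdkn2a, p15Ink4b from Cdkn2b and p18Ink4c from Cdkn2c) bind CDK4 and CDK6. Cdkn2a also encodes p19Arf, which is not an INK4 inhibitor. The CIP/KIP inhibitors (p21 from Cdkn1a, p27 from Cdkn1b, p57 from Cdkn1c) bind cyclin-CDK complexes, mainly those of CDK2. TGFβ is known to arrest many normal epithelial cells in G1, with induction of Cdkn2b and Cdkn1a as textbook steps, and p53 induces Cdkn1a and Mdm2, whose product in turn marks p53 for breakdown. Several of these proteins, p27, p53 and the D cyclins among them, are controlled strongly through protein turnover, which RNA counts do not show.

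The start regions of 3 of these genes are shown because the results below turn on genes with a known inducer (TGFβ for Cdkn2b, p53 for Cdkn1a) and on 1 gene with separate starts for different products (Cdkn2a). They are RefSeq windows of build GRCm38.p6, from 250 bases before to 50 bases after an annotated start, written in the direction of transcription. Of the 2 Cdkn1a windows only that of the upstream start is printed, and in it capitals mark a p53 response element. In the Cdkn2b window they mark the 5-letter motif CAGAC of SMAD factors or its complement, and in the Cdkn2a windows the GC box GGGCGG. All motifs were searched on both strands, and none of the marked matches overlap.
Cdkn1a, chr17:29090729-29091028, plus strand: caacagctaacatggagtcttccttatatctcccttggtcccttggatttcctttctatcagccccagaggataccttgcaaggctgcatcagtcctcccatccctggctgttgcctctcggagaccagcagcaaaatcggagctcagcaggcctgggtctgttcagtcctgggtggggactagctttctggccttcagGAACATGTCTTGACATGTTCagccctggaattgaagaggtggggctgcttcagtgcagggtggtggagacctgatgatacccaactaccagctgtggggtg
Cdkn2b, chr4:89310983-89311282, minus strand: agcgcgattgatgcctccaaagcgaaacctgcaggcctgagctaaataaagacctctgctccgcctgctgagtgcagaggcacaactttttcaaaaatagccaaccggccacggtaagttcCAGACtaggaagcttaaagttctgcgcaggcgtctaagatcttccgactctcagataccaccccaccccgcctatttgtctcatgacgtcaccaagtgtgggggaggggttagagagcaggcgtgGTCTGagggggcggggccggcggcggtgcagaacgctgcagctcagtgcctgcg
Cdkn2a, upstream start (first exon of p19Arf), chr4:89294570-89294869, minus strand: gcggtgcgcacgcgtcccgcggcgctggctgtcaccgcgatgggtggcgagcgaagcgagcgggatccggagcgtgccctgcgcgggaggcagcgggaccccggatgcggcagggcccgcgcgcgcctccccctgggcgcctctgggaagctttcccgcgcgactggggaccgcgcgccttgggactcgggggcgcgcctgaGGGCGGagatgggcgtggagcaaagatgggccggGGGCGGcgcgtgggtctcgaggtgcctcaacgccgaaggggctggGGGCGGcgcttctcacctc
Cdkn2a, downstream start (first exon of p16Ink4a), chr4:89282143-89282442, minus strand: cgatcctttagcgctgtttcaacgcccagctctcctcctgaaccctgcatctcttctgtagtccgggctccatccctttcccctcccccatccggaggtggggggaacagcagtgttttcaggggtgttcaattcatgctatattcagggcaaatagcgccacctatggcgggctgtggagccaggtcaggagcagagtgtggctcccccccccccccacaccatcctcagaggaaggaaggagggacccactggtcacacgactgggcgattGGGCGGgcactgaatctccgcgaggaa
A p53 response element was taken as 20 bases that depart at no more than 1 position from 2 adjacent half-sites, a tolerance chosen after the windows were read. It occurred once in the Cdkn1a window, its first base 51 bases before the start, in 0 of the other member windows, and in 29 of 32851 windows in the RefSeq table (0.088%). Only these windows were searched, for Mdm2 a single one at its upstream end, so elements elsewhere in a gene would be missed. CAGAC occurred 2 times in the Cdkn2b window, and 49.6% of all windows hold at least 1 such motif. It also occurred 1 time in each Cdkn1a window, left unmarked in the printed one, and 1 time in the downstream Cdkn2c window. GGGCGG occurred 3 times at the upstream and 1 time at the downstream start of Cdkn2a, and 35.7% of all windows hold it. Windows of Cdkn1a, Cdkn1b, Cdkn2b, Cdkn2c and Mdm2 hold it as well. Windows were found for 7 of the 10 members, 10 windows in all. Ccnd1, Ccnd2 and Cdkn1c were the others. Matches of letters are descriptions of these windows and were not tested for binding or for any effect.

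Library totals ran from 17007268 to 21311831 counts, and levels are given as CPM, counts scaled to a common library size with TMM factors, as mean ± SD of 2 libraries or per library, replicate 1 first. The labels do not say that replicates came from separate cultures, so p-values measure only the spread between these libraries. Agps itself averaged 39.8 ± 5.87 CPM in TGFβ-treated and 31.1 ± 2.52 CPM in untreated KO cells, against 265.5 ± 0.98 CPM in treated and 343.5 ± 19.4 CPM in untreated parental cells. Among epithelial markers Krt8, Krt18, Krt19 and Cdh1 were present, whereas Epcam and Cldn7 had 0 counts in all 8 libraries and Cldn3 had 1. The 7 mesenchymal markers summed to between 10760 and 10810 CPM in treated KO libraries, 1889 and 2004 in untreated KO, 11510 and 11780 in treated parental and 1831 and 1919 in untreated parental libraries.

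With TGFβ, 8 of the 9 tested genes changed in KO cells and 7 of 9 in parental cells at an adjusted p under 0.05 (edgeR quasi-likelihood test). In KO cells 3 rose (Cdkn2b, Trp53 and Mdm2) and 5 fell (Ccnd1, Ccnd2, Cdkn2c, Cdkn1a and Cdkn1b), where 41.4% of all tested genes changed, 20.9% upwards and 20.6% downwards. In parental cells 2 rose (Trp53 and Mdm2) and 5 fell (Ccnd1, Ccnd2, Cdkn2a, Cdkn2c and Cdkn1b), where 42.5% of all tested genes changed, 21.3% upwards and 21.2% downwards. The median log2 fold change of the 9 was -0.57 in KO cells and -0.36 in parental cells, beside 0 and 0.01 over all tested genes. Treated and untreated libraries did not overlap for 8 of the 9 genes in KO cells, with 68.8% of all genes apart, and for 9 of 9 in parental cells, with 72.1% apart. The parental count was the less settled one: it was 4 of 9 without either TGFβ-treated parental library, and the count of falls there was 3 without untreated parental replicate 2 or without either treated parental library. In KO cells leaving out treated replicate 1 left 1 rise. The comparisons share groups of libraries and are not independent of each other. In RNA from whole cultures, fewer cells with a transcript and less of it per cell cannot be told apart.

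**Figure D1:**
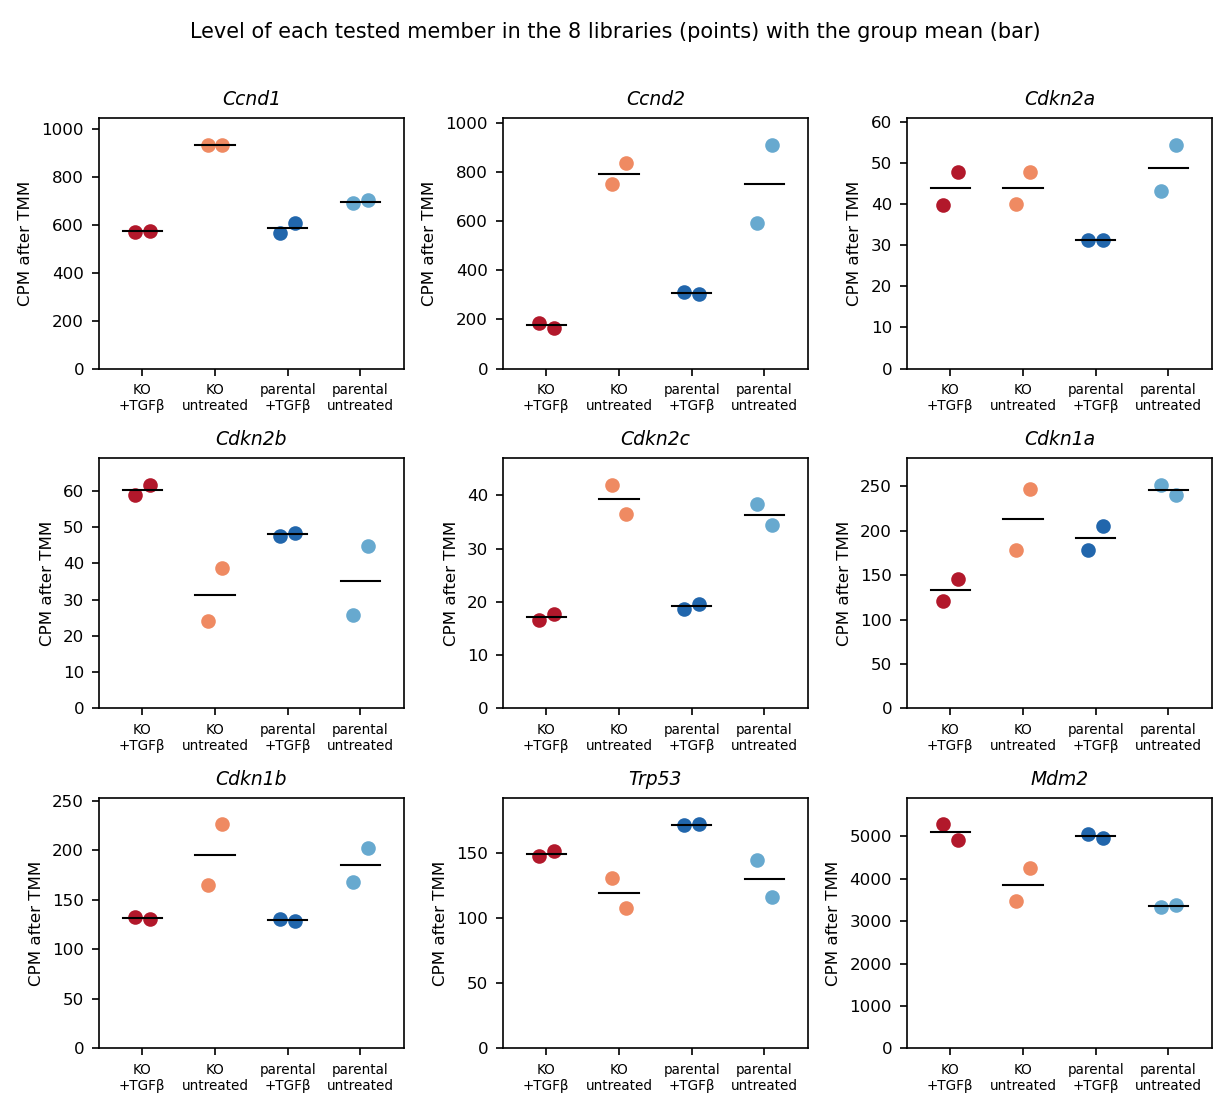
Levels of the 9 tested genes in CPM after TMM scaling (vertical axes, each starting at 0), with a point per library and a bar at the mean of 2 libraries, for KO cells with TGFβ, untreated KO cells, parental cells with TGFβ and untreated parental cells. Ccnd2 sits at 167 and 184 CPM in treated KO cells against 752 and 834 in untreated KO cells, and the lowest Mdm2 library is at 3322 CPM.

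Between the lines fewer of the genes differed. Without treatment 1 of 9 differed, Ccnd1, which was higher in KO cells, against a background of 13.7% of all tested genes, 4.72% higher and 8.94% lower. With TGFβ 3 of 9 differed, Cdkn2a higher and Ccnd2 and Cdkn1a lower in KO cells, against 17.9% of all tested genes, 6.82% higher and 11.1% lower. KO and parental libraries did not overlap for 2 of 9 genes without treatment, with 50.7% of all genes apart, and for 7 of 9 with TGFβ, with 61.3% apart. The count with TGFβ was 0 without treated KO replicate 2 and 1 without either treated parental library. Without treatment, leaving out parental replicate 2 added Ccnd2 as higher (0.42, adjusted p = 0.0282) and leaving out KO replicate 2 added Cdkn1a as lower (-0.46, adjusted p = 0.0436). Both lines' libraries at TGFβ also differed in the endothelial markers, which summed to between 6.71 and 8.24 CPM in KO and 76.5 CPM in parental libraries, nearly all of it Cdh5, with Emcn at 0 in all libraries. The part of these marker levels in the results was not tested.

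**Figure D2:**
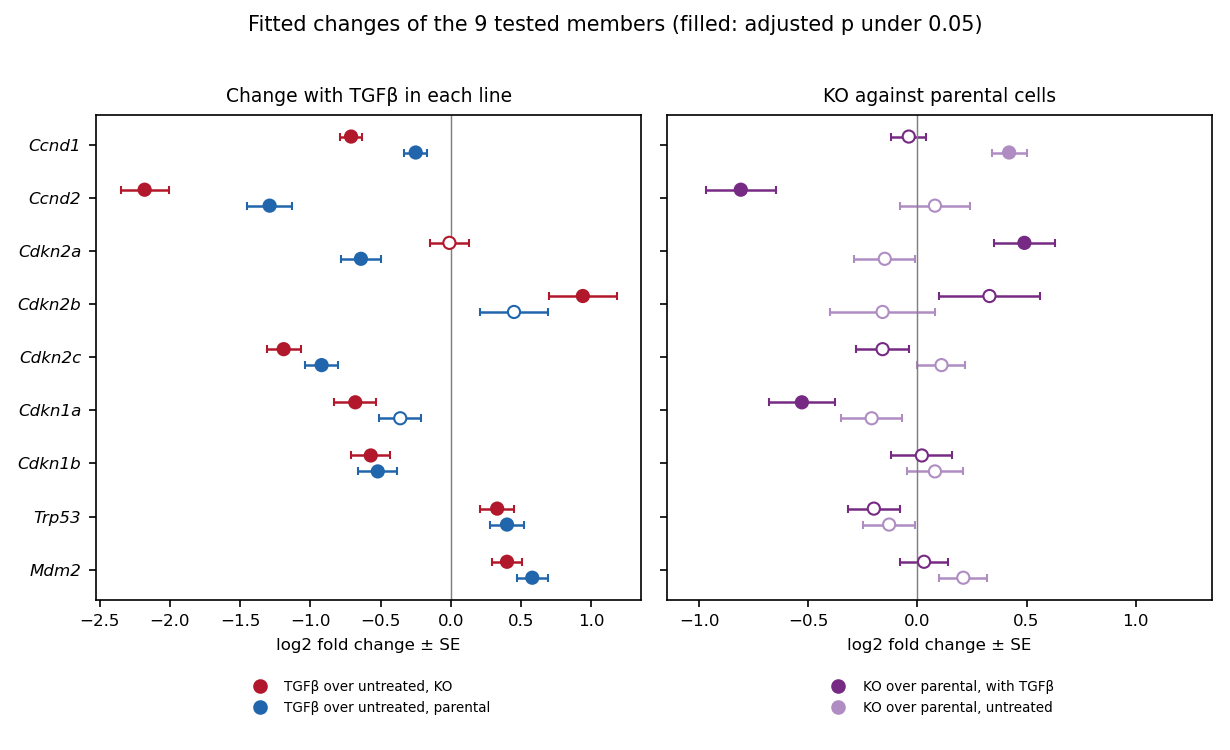
Log2 fold changes of the 9 tested genes with standard errors from the fit (horizontal axes), for TGFβ over untreated in each line (left) and for KO over parental cells with and without TGFβ (right). Filled points have an adjusted p under 0.05: 8 in KO and 7 in parental cells on the left, and 3 with TGFβ and 1 without on the right.

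Ccnd1 (ENSMUSG00000070348, chr7:144929931-144939925, minus strand) and Ccnd2 (ENSMUSG00000000184, chr6:127125162-127152193, minus strand) encode cyclins D1 and D2, which carry growth signals to CDK4 and CDK6, and both fell with TGFβ in both lines. Ccnd1 had 569.7 and 576 CPM in treated KO libraries, against 935 and 933 in untreated KO libraries. It had 567 and 607 CPM in treated parental libraries, against 691 and 703 in untreated parental libraries. The 4 treated libraries thus lay close together across the lines, while the untreated KO libraries were the highest of the 8. Ccnd1 fell by 0.71 on the log2 scale in KO cells (SE 0.08, adjusted p = 2.58e-05) and by 0.25 in parental cells (SE 0.08, adjusted p = 0.0273). The parental fall was small, 15.8%, and it lost its call without each of the 4 parental libraries, with adjusted p between 0.0552 and 0.21, and with upper quartile scaling of all libraries (adjusted p = 0.0667). Untreated KO cells had 1.34-fold the level of untreated parental cells (log2 0.42, SE 0.08, adjusted p = 0.00457), and with TGFβ the log2 difference between the lines was -0.04 (SE 0.08, adjusted p = 0.822). Some 23.4% of the exonic length of Ccnd1 overlaps the oppositely oriented gene LTO1, which had 2266 counts over all 8 libraries, fewer than Ccnd1 had in any single one. The strandedness of counting is not named, so how reads from the shared bases were counted is not known. Their effect on the CPM and RPKM of Ccnd1 was not tested.

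Ccnd2 had 184 and 167 CPM in treated KO libraries, against 752 and 834 in untreated KO libraries. It had 310 and 303 CPM in treated parental libraries, against 592 and 910.5 in untreated parental libraries. Treated and untreated libraries were well apart in each line, and the untreated parental pair was the most uneven of the 4 groups, its libraries 1.54-fold apart. Ccnd2 fell by 2.18 on the log2 scale in KO cells (SE 0.17, adjusted p = 8.76e-07), a 4.53-fold drop, and by 1.29 in parental cells (SE 0.16, adjusted p = 5.38e-05), a 2.45-fold drop. With TGFβ, KO cells had less Ccnd2 than parental cells, by 0.81 on the log2 scale (SE 0.16, adjusted p = 0.0051), a call that was lost without treated KO replicate 2 (-0.72, adjusted p = 0.0705). Without treatment the difference of KO from parental cells was 0.08 (SE 0.16, adjusted p = 0.817) and turned to -0.20 without untreated parental replicate 1. Antisense genes overlap 3.95% and 3.91% of its exonic length and had 9 and 52 counts over all libraries.

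Per length of all annotated exons (CPM per kilobase of exon, RPKM), Ccnd1 was the main D cyclin in every library. Its lead over Ccnd2 was largest in treated KO cells. This order rests on exonic lengths of 4709 bases for Ccnd1 and 9409 for Ccnd2, and which transcripts were expressed was not tested. By CPM Ccnd2 was above Ccnd1 in untreated parental replicate 2 (910.5 against 703), and below it in the other libraries. The Ccnd1 to Ccnd2 ratio of RPKM was 6.2 and 6.91 in treated KO libraries, against 2.48 and 2.23 in untreated KO libraries. It was 3.65 and 4.01 in treated parental libraries, against 2.33 and 1.54 in untreated parental libraries. Cyclin D3, from Ccnd3, made up between 2.66% and 5.76% of the D cyclin RPKM. All 3 D cyclins together summed to 146 and 146.1 RPKM in treated KO libraries, against 287.1 and 294.6 in untreated KO libraries, and to 159.4 and 166.6 RPKM in treated parental libraries, against 222.4 and 258 in untreated parental libraries. The treated sums were below the untreated ones in both lines.

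**Figure D3:**
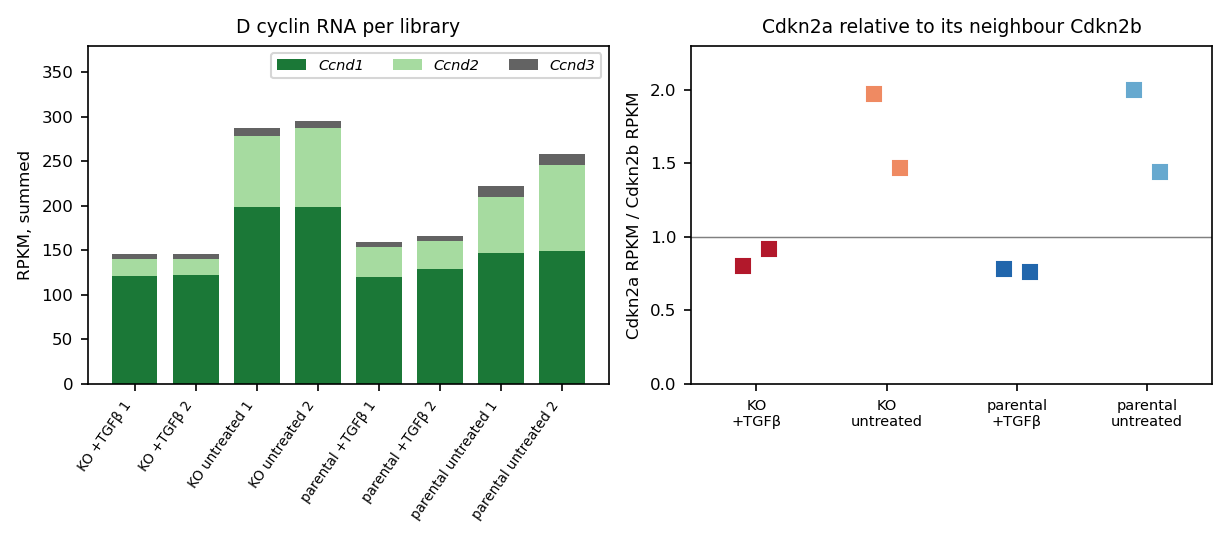
Left, RPKM of Ccnd1, Ccnd2 and Ccnd3 stacked for each library, with replicate numbers under the bars. Right, the ratio of Cdkn2a to Cdkn2b RPKM per library, with a line at 1: the 4 TGFβ-treated libraries lie between 0.763 and 0.919 and the 4 untreated ones between 1.44 and 2.

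The INK4 genes did not move as a group. Cdkn2a (ENSMUSG00000044303, chr4:89274471-89294653, minus strand) and Cdkn2b (ENSMUSG00000073802, chr4:89306299-89311039, minus strand) lie 11645 bases apart, and Cdkn2c (ENSMUSG00000028551, chr4:109660876-109667189, minus strand) lies elsewhere on the same chromosome. Counts are per gene, so p16Ink4a and p19Arf, which start at the separate windows shown above, cannot be told apart. Cdkn2a had 39.9 and 47.8 CPM in treated KO libraries, against 40.1 and 47.9 in untreated KO libraries. It had 31.3 and 31.2 CPM in treated parental libraries, against 43.3 and 54.5 in untreated parental libraries. Only the treated parental pair stood below the rest, and the KO groups overlapped fully. Cdkn2a fell by 0.64 on the log2 scale with TGFβ in parental cells (SE 0.14, adjusted p = 0.00323), while in KO cells the change was -0.01 (SE 0.14, adjusted p = 0.98). With TGFβ, KO cells had 1.4-fold the parental level (log2 0.49, SE 0.14, adjusted p = 0.034), a call lost without either treated parental library (adjusted p = 0.166 and 0.159) and without treated KO replicate 2 (log2 0.37, adjusted p = 0.22). Untreated, the log2 difference of KO from parental cells was -0.15 (SE 0.14, adjusted p = 0.56). The 12 tested genes within 1 Mb of Cdkn2a had a median KO over parental log2 difference of -0.21 untreated and -0.13 with TGFβ, beside 0.03 and 0.02 for their chromosome.

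Cdkn2b, the INK4 gene that TGFβ is known to induce, rose in KO cells. It had 58.85 and 61.75 CPM in treated KO libraries, against 24.2 and 38.6 in untreated KO libraries. It had 47.5 and 48.5 CPM in treated parental libraries, against 25.7 and 44.9 in untreated parental libraries. Treated libraries were above untreated ones in each line, and in both lines the untreated pair was uneven with replicate 2 the higher. The rise was 0.94 on the log2 scale in KO cells (SE 0.24, adjusted p = 0.00741), 1.92-fold. In parental cells the change was 0.45 (SE 0.24, adjusted p = 0.156) and did not pass. Without untreated parental replicate 2 the parental value was 0.90 (adjusted p = 0.00499), and over all alternatives the adjusted p ran from 0.00499 to 0.768. The difference of KO from parental cells was 0.33 with TGFβ (SE 0.23, adjusted p = 0.388) and -0.16 untreated (SE 0.24, adjusted p = 0.738). Per length, Cdkn2a had 0.804 and 0.919 times the RPKM of Cdkn2b in treated KO libraries, against 1.97 and 1.47 times in untreated KO libraries. In treated parental libraries it had 0.781 and 0.763 times, against 2 and 1.44 times in untreated parental libraries. So Cdkn2b had the higher RPKM of the pair in the 4 treated libraries and Cdkn2a in the 4 untreated ones.

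Cdkn2c, the gene of p18Ink4c, fell in both lines. It had 16.6 and 17.7 CPM in treated KO libraries, against 42.0 and 36.5 in untreated KO libraries. It had 18.7 and 19.7 CPM in treated parental libraries, against 38.4 and 34.3 in untreated parental libraries. Every treated library was at about the same low level, whatever the line. Cdkn2c fell by 1.19 on the log2 scale in KO cells (SE 0.12, adjusted p = 8.02e-06), 2.29-fold, and by 0.92 in parental cells (SE 0.12, adjusted p = 7.13e-05), 1.9-fold. The difference of KO from parental cells was -0.16 with TGFβ (SE 0.12, adjusted p = 0.426) and 0.11 untreated (SE 0.11, adjusted p = 0.611). The other INK4 gene, Cdkn2d, and Cdkn3, a phosphatase gene grouped with the CDK inhibitors, fell as well in both lines (2 of 2 in each). Of all tested genes 20.6% fell in KO and 21.2% in parental cells. Cdkn2d fell by 0.63 in KO cells (SE 0.13, adjusted p = 0.00184) and by 0.57 in parental cells (SE 0.13, adjusted p = 0.00421), and Cdkn3 fell by 1.01 (SE 0.15, adjusted p = 0.00017) and by 1.11 (SE 0.15, adjusted p = 0.000117).

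Of the CIP/KIP genes, Cdkn1a (ENSMUSG00000023067, chr17:29090976-29100727, plus strand) encodes p21, the inhibitor known as a target of both p53 and TGFβ, and its RNA fell with TGFβ in KO cells. Cdkn1a had 120.5 and 146 CPM in treated KO libraries, against 179 and 248 in untreated KO libraries. It had 178 and 206 CPM in treated parental libraries, against 252 and 240.1 in untreated parental libraries. The groups did not overlap in either line, and the treated KO pair was the lowest of the 8 libraries. Cdkn1a fell by 0.68 on the log2 scale in KO cells (SE 0.15, adjusted p = 0.00285), and by 0.43 (adjusted p = 0.0218) when untreated KO replicate 2 was left out. In parental cells the change was -0.36 (SE 0.15, adjusted p = 0.0671), which was past the threshold with DESeq2 (adjusted p = 0.0478), without either untreated KO library (adjusted p = 0.0154 and 0.0152) and in a fit of the 4 parental libraries alone (adjusted p = 0.00981), with a range of 0.00128 to 0.33 over all alternatives. With TGFβ, KO cells had 30.6% less Cdkn1a than parental cells (log2 -0.53, SE 0.15, adjusted p = 0.0284). That call was lost without any 1 of the 4 treated libraries, with adjusted p between 0.0559 and 0.205. Untreated, the log2 difference of KO from parental cells was -0.21 (SE 0.14, adjusted p = 0.415).

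Cdkn1b (ENSMUSG00000003031, chr6:134920401-134925513, plus strand), the gene of p27, had 132.5 and 131 CPM in treated KO libraries, against 165 and 226 in untreated KO libraries. It had 130.5 and 129 CPM in treated parental libraries, against 168 and 203 in untreated parental libraries. The treated libraries of both lines sat within a narrow band, below all untreated ones. Cdkn1b fell by 0.57 on the log2 scale in KO cells (SE 0.14, adjusted p = 0.00517), and by 0.33 (adjusted p = 0.0496) without untreated KO replicate 2. It fell by 0.52 in parental cells (SE 0.14, adjusted p = 0.00949), where the call was lost without untreated replicate 2 or either treated library, with adjusted p between 0.0506 and 0.0652. The difference of KO from parental cells was 0.02 with TGFβ (SE 0.14, adjusted p = 0.942) and 0.08 untreated (SE 0.13, adjusted p = 0.786).

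Cdkn1c (ENSMUSG00000037664, chr7:143458339-143461050, minus strand), the imprinted gene of p57, had 0 counts in all 8 libraries. A count of 0 allows up to 3 counts, which is 0.152 and 0.166 CPM in treated KO libraries, 0.145 and 0.139 CPM in untreated KO libraries, 0.159 and 0.179 CPM in treated parental libraries and 0.158 and 0.176 CPM in untreated parental libraries. Such limits cover counting error only. No other member was below detection: the lowest count of any of the other 9 genes in a library was 320, for Cdkn2c in treated KO replicate 2.

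Trp53 (ENSMUSG00000059552, chr11:69580359-69591873, plus strand), the gene of the p53 tumour suppressor, rose slightly with TGFβ in both lines. It had 148 and 152 CPM in treated KO libraries, against 131 and 108 in untreated KO libraries. It had 171.5 and 172 CPM in treated parental libraries, against 145 and 116 in untreated parental libraries. Treated libraries were above untreated ones within each line, but the highest untreated parental library, 145 CPM, lay close to the treated KO libraries. The rise was 0.33 on the log2 scale in KO cells (SE 0.12, adjusted p = 0.045) and 0.40 in parental cells (SE 0.12, adjusted p = 0.0184). Both calls were fragile. The KO rise was 0.19 (adjusted p = 0.3) without untreated KO replicate 2, and it also missed the threshold without any 1 of the treated libraries of either line, with adjusted p between 0.0711 and 0.159. The parental rise was 0.24 (adjusted p = 0.161) without untreated parental replicate 2, and adjusted p was 0.08 and 0.0848 without either treated parental library. KO cells differed from parental cells by -0.20 with TGFβ (SE 0.12, adjusted p = 0.291) and by -0.13 untreated (SE 0.12, adjusted p = 0.56). A processed copy, Trp53-ps, shares 3.64% of the 50-base stretches of Trp53 transcripts and had 738 counts over all libraries.

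Mdm2 (ENSMUSG00000020184, chr10:117688875-117710758, minus strand) had by far the highest level of the 10 genes. It had 5279 and 4918 CPM in treated KO libraries, against 3466 and 4259 in untreated KO libraries. It had 5045 and 4949 CPM in treated parental libraries, against 3322 and 3369 in untreated parental libraries. All treated libraries lay above all untreated ones. Mdm2 rose by 0.40 on the log2 scale in KO cells (SE 0.11, adjusted p = 0.0117) and by 0.58 in parental cells (SE 0.11, adjusted p = 0.00126). The KO rise lost its call without untreated KO replicate 1 (0.26, adjusted p = 0.0934) or treated KO replicate 1 (0.35, adjusted p = 0.0647). The difference of KO from parental cells was 0.03 with TGFβ (SE 0.11, adjusted p = 0.898) and 0.21 untreated (SE 0.11, adjusted p = 0.261). By mean RPKM over the 8 libraries Mdm2, at 851, ranked 13th of 14641 tested genes, 174 times their median of 4.88 RPKM, and by CPM it ranked 7th. Its RPKM was between 18.3 and 31.4 times that of Trp53 in every library.

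Among the neighbours of Mdm2, Nup107 and Rap1b had levels of the same order, while the gene between, Slc35e3, was much lower. The 3 tested genes that follow it on chromosome 10 of GRCm38 were Slc35e3, a solute carrier gene, at 93.4 RPKM on average over the 8 libraries, Nup107, a nuclear pore gene, at 560.8 RPKM and Rap1b, a small GTPase gene, at 1215 RPKM. On the other side Cpm, a carboxypeptidase gene, had 30.6 RPKM, Cpsf6 had 14.7, Yeats4 25.9 and Frs2 6.97 RPKM, and on the far side of Rap1b Mdm1 had 53.2 RPKM. The chaperonin subunit gene Cct2, farther out, had 226 RPKM. Of these 3, Rap1b and Slc35e3 rose with TGFβ in both lines. Rap1b rose by 0.50 in KO cells (adjusted p = 0.000803) and by 0.38 in parental cells (adjusted p = 0.00494). Slc35e3 rose by 0.57 in KO cells (adjusted p = 0.00589) and by 0.46 in parental cells (adjusted p = 0.0196). Its KO call was lost without treated KO replicate 1 (adjusted p = 0.0572), and its parental call without untreated parental replicate 2 (0.31, adjusted p = 0.134) or treated parental replicate 1 (0.37, adjusted p = 0.138). Nup107 had a log2 fold change of 0.21 in KO cells (adjusted p = 0.0791) and of 0.16 in parental cells (adjusted p = 0.183). KO cells had more Slc35e3 than parental cells, by 0.57 with TGFβ (adjusted p = 0.0139) and by 0.46 untreated (adjusted p = 0.0463). They had more Nup107 with TGFβ, by 0.28 (adjusted p = 0.0454). Each of these calls was lost when some single libraries were left out. Nup107 untreated and Rap1b with or without TGFβ did not pass between the lines. These neighbours were looked at after the level of Mdm2 was seen.

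**Figure D4:**
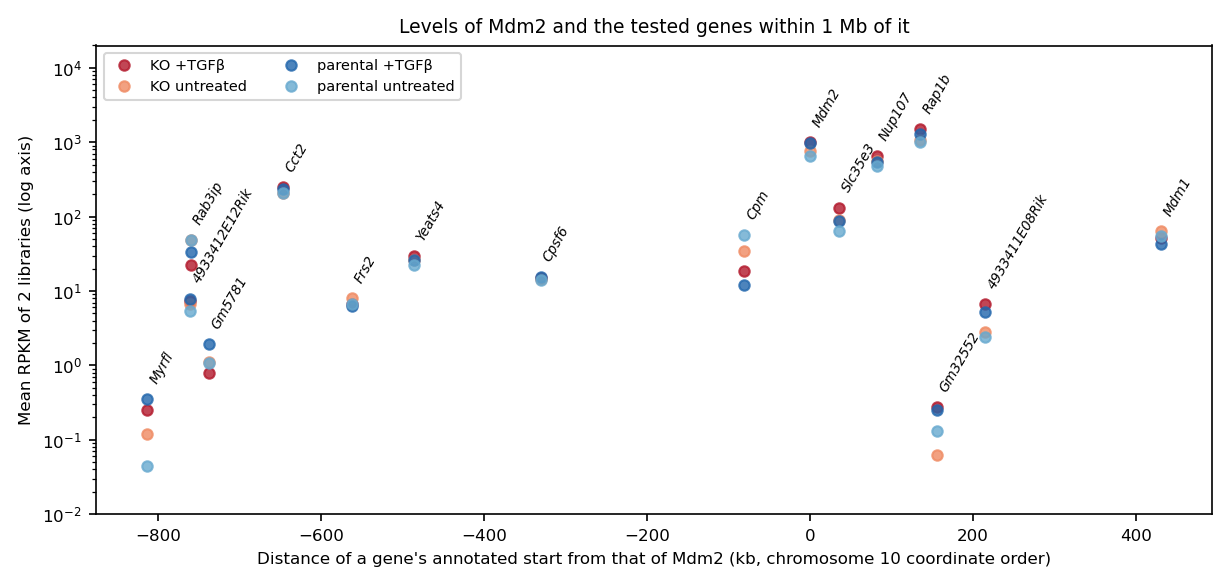
Mean RPKM of 2 libraries per group (vertical log axis) for Mdm2 and the 15 other tested genes within 1 Mb of it, by the distance of their annotated starts from that of Mdm2 (horizontal axis, kb). Mdm2, Nup107 and Rap1b lie between 483.1 and 1502 RPKM in all groups. Slc35e3, directly next to Mdm2 on the side of Nup107, lies between 64.5 and 131.6 RPKM, and Cpm, the next gene on the other side, between 12.0 and 56.7 RPKM.

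Ranked by mean RPKM, Mdm2 came first and Ccnd1 second in all 4 groups, and Cdkn2c last of the 9 tested genes. In treated KO cells the order was Mdm2 at 1003 RPKM, Ccnd1 at 121.7, Cdkn2b at 43.4, Cdkn1a at 37.5, Cdkn2a at 37.4, Trp53 at 37.0, Cdkn1b at 28.9, Ccnd2 at 18.6 and Cdkn2c at 6.39, and Cdkn1a, Cdkn2a and Trp53 overlapped their neighbours in the order. In untreated KO cells it was Mdm2 at 759.9, Ccnd1 at 198, Ccnd2 at 84.3, then Cdkn1a, Cdkn1b at 43.0, Cdkn2a at 37.55, Trp53 at 29.5, Cdkn2b at 22.6 and Cdkn2c at 14.6, where the libraries of Cdkn1b and Cdkn2a overlapped and so did those of Trp53 and Cdkn2b. In treated parental cells it was Mdm2 at 983, Ccnd1 at 125, Cdkn1a at 54.0, Trp53 at 42.45, Cdkn2b at 34.5, Ccnd2 at 32.6, Cdkn1b at 28.5, Cdkn2a at 26.7 and Cdkn2c at 7.14, with no neighbours overlapping. In untreated parental cells it was Mdm2 at 658, Ccnd1 at 148, Ccnd2 at 79.8, Cdkn1a at 69.3, Cdkn2a at 41.7, Cdkn1b at 40.8, Trp53 at 32.2, Cdkn2b at 25.4 and Cdkn2c at 13.5, and Ccnd2 overlapped Cdkn1a, Cdkn2a overlapped Cdkn1b and Trp53 overlapped Cdkn2b. Ccnd2 thus had position 8 in treated KO and 6 in treated parental cells, against position 3 in both untreated groups. Cdkn2b had position 3 in treated KO and 5 in treated parental cells, against position 8 in both untreated groups.

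The TGFβ change was compared between the lines as a difference of differences, KO minus parental. Of the 9 genes 0 passed (edgeR), where 2.4% of all tested genes did, 1.25% higher and 1.15% lower, and 3 had an unadjusted p under 0.05. These were Ccnd1 (-0.46, SE 0.11, unadjusted p = 0.00188, adjusted p = 0.0639), Ccnd2 (-0.88, SE 0.22, unadjusted p = 0.00223, adjusted p = 0.0717) and Cdkn2a (0.64, SE 0.20, unadjusted p = 0.00774, adjusted p = 0.143). With DESeq2 2 passed, Ccnd1 (adjusted p = 0.0216) and Ccnd2 (adjusted p = 0.00382), with limma voom 1, Ccnd1 (adjusted p = 0.0445), and without the filter on low counts all 3. Over all alternatives adjusted p ran from 0.0191 to 0.317 for Ccnd1, from 6.7e-09 to 0.31 for Ccnd2 and from 0.0144 to 0.448 for Cdkn2a. Without untreated parental replicate 2 the value for Ccnd2 was -1.23 (adjusted p = 0.000702). For the other 6 genes the difference lay between -0.32 for Cdkn1a and 0.49 for Cdkn2b, with adjusted p of 0.536 and above. A p above the threshold does not show that the lines responded alike.

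Downstream of the D cyclins, 8 of 13 pocket protein, E2F and DP genes fell in each line. Of the 13 tested genes for pocket proteins, E2F factors and their DP partners, 8 fell and 1 rose with TGFβ in KO cells, and 8 fell and 0 rose in parental cells, with median log2 fold changes of -0.45 and -0.41 beside 0 and 0.01 over all genes, of which 20.6% fell in KO and 21.2% in parental cells. E2f3, E2f6 and Tfdp1 passed in neither line. Their count of falls was 5 without either treated KO library and 5 without treated parental replicate 1. The gene that rose in KO cells was E2f4 (0.32, SE 0.11, adjusted p = 0.0403), and the count of rises was 0 without any 1 of the 4 treated libraries or untreated KO replicate 2. E2f2, an activating E2F gene, was at 7.003 CPM in treated and 25.2 CPM in untreated KO cells (-1.84, SE 0.29, adjusted p = 0.000373), and at 4.11 CPM in treated and 17.4 CPM in untreated parental cells (-2.08, SE 0.32, adjusted p = 0.000297). The pocket protein gene Rbl1 fell by 0.80 in KO cells (SE 0.10, adjusted p = 6.82e-05) and by 0.73 in parental cells (SE 0.10, adjusted p = 0.000158), and the retinoblastoma gene Rb1 itself fell by 0.77 in KO cells (SE 0.12, adjusted p = 0.000382) and by 0.41 in parental cells (SE 0.12, adjusted p = 0.0181). The DP partner gene Tfdp2 fell by 0.61 in parental cells (SE 0.09, adjusted p = 0.000237) and had a log2 fold change of -0.18 in KO cells (adjusted p = 0.135). E2f4, a repressive E2F gene, was lower in KO than in parental cells, by 0.70 with TGFβ (SE 0.11, adjusted p = 0.00135) and by 1.01 untreated (SE 0.11, adjusted p = 0.000159), and so was Rbl2, by 0.51 with TGFβ (SE 0.10, adjusted p = 0.00501) and by 0.40 untreated (SE 0.10, adjusted p = 0.021). The Rbl2 call with TGFβ was lost without treated parental replicate 2 (adjusted p = 0.066), and that without treatment when replicate 1 of either untreated line was left out (adjusted p = 0.0825 without the parental library and 0.147 without the KO library) and in a fit of the 2 untreated groups alone (adjusted p = 0.0812).

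Among 8 other cyclin, CDK and CDK phosphatase genes of the G1 to S transition, 4 fell and 0 rose with TGFβ in KO cells, and 2 fell and 1 rose in parental cells, where 3 rose without untreated parental replicate 1. Over all tested genes 41.4% were called in KO cells, 20.6% as falls and 20.9% as rises. In parental cells 42.5% were called, 21.2% as falls and 21.3% as rises. Cdk6, the kinase partner of the D cyclins, had a mean of 871 CPM in treated and 1653 CPM in untreated KO cells (-0.92, SE 0.12, adjusted p = 5.78e-05), and of 1064 CPM in treated and 1166 CPM in untreated parental cells (-0.13, adjusted p = 0.397). Cyclin A gene Ccna2 fell by 0.50 in KO cells (SE 0.08, adjusted p = 0.000578) and by 0.41 in parental cells (SE 0.08, adjusted p = 0.00213). Ccnd3 fell by 0.51 in KO cells (SE 0.10, adjusted p = 0.00156) and by 1.11 in parental cells (SE 0.10, adjusted p = 4.4e-06), and untreated KO cells had less of it than untreated parental cells, by 0.59 (SE 0.10, adjusted p = 0.00232). Cdk4 rose by 0.27 in parental cells (SE 0.09, adjusted p = 0.0301), a call lost without untreated parental replicate 2 (adjusted p = 0.217), either treated parental library (adjusted p = 0.108 and 0.158) or treated KO replicate 2 (adjusted p = 0.0512). Cdk6 was 0.50 higher in untreated KO than untreated parental cells (SE 0.12, adjusted p = 0.0136), a call lost without untreated KO replicate 1 (0.32, adjusted p = 0.0963) or untreated parental replicate 2 (0.45, adjusted p = 0.0537) and in a fit of the 2 untreated groups alone (adjusted p = 0.0723). Of 12 proliferation markers, 9 fell in KO cells and 8 in parental cells with TGFβ, and 0 rose. Over all tested genes 20.6% fell in KO and 21.2% in parental cells. The summed level of these markers was between 3741 and 3860 CPM in treated KO and 4945 and 5170 CPM in untreated KO libraries. In parental libraries it was between 3260 and 3292 CPM with TGFβ and 4172 and 4660 CPM untreated. It thus fell with TGFβ in each line, as did the D cyclin sum. Between the treated lines it was higher in KO libraries, while the D cyclin sum was lower there. With TGFβ 3 of the 12 markers were called higher in KO cells and 0 lower, and untreated 2 higher and 0 lower. Of all tested genes 6.82% were higher with TGFβ and 4.72% untreated. The part of these markers in the D cyclin and E2F changes was not tested.

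Among listed genes known as p53 targets, more fell than rose with TGFβ in each line. Cdkn1a and Mdm2, also induced by p53, are members and were not on this list. Of 26 tested targets, 15 fell and 0 rose with TGFβ in KO cells, and 11 fell and 2 rose in parental cells, with median log2 fold changes of -0.51 and -0.23. Of all tested genes 20.6% fell and 20.9% rose in KO cells, and 21.2% fell and 21.3% rose in parental cells. The KO count of falls was 9 without treated KO replicate 1, and the parental count of rises was 1 without either treated parental library and did not pass 3 without any other. The antiproliferative gene Btg2 fell most, at 34.05 CPM in treated and 228 CPM in untreated KO cells (-2.74, SE 0.12, adjusted p = 8.91e-09), and at 45.1 CPM in treated and 256 CPM in untreated parental cells (-2.50, SE 0.11, adjusted p = 1.73e-08). Perp, a desmosome-associated apoptosis gene, fell by 2.46 in KO cells (SE 0.13, adjusted p = 4.45e-08) and by 1.13 in parental cells (SE 0.12, adjusted p = 1.65e-05). Trp53inp1, a stress response gene, fell by 1.82 in KO cells (SE 0.12, adjusted p = 2.01e-07) and by 1.05 in parental cells (SE 0.11, adjusted p = 1.89e-05). Pmaip1, the gene of the BH3-only protein Noxa, was one of the 2 that rose in parental cells, by 0.74 (SE 0.09, adjusted p = 4.19e-05), with a change of -0.03 in KO cells (adjusted p = 0.846). Of the 4 tested epithelial markers, 2 fell in KO cells and 4 in parental cells. Krt19 fell by 2.97 in KO cells (SE 0.12, adjusted p = 7.41e-09) and by 2.29 in parental cells (SE 0.12, adjusted p = 4.24e-08), while in KO cells Krt8 had a log2 fold change of 0.16 (adjusted p = 0.264) and Krt18 of 0.12 (adjusted p = 0.361). The part of these markers in the fall of Perp was not tested.

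Between the lines, 6 of the 26 p53 targets were lower and 1 higher in KO cells with TGFβ, and 4 were lower and 1 higher without it. Of all tested genes 11.1% were lower and 6.82% higher with TGFβ, and 8.94% lower and 4.72% higher without it. With TGFβ these included Perp at -1.22 (SE 0.13, adjusted p = 0.000108), Pmaip1 at -0.81 (SE 0.09, adjusted p = 0.000128) and the kinase gene Plk2 at -0.74 (SE 0.12, adjusted p = 0.00163). The epithelial markers Cdh1, at -1.35 (SE 0.11, adjusted p = 1.4e-05), and Krt19, at -1.24 (SE 0.12, adjusted p = 4.25e-05), were also lower in KO cells with TGFβ, and their part in the value of Perp was not tested. Without treatment Plk2 was lower by 0.69 (SE 0.12, adjusted p = 0.00277), the stress cytokine gene Gdf15 was lower by 0.99 (SE 0.19, adjusted p = 0.00434), and Trp53inp1 was higher by 0.71 (SE 0.11, adjusted p = 0.00149). The count without treatment ranged from 3 to 6 lower and from 1 to 3 higher as single libraries were left out. It was 6 lower without untreated KO replicate 2 and 3 higher without untreated KO replicate 1. With TGFβ the count of lower genes was 4 without either treated KO library, and the count of higher genes was 0 without either treated parental library or treated KO replicate 1.

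**Figure D5:**
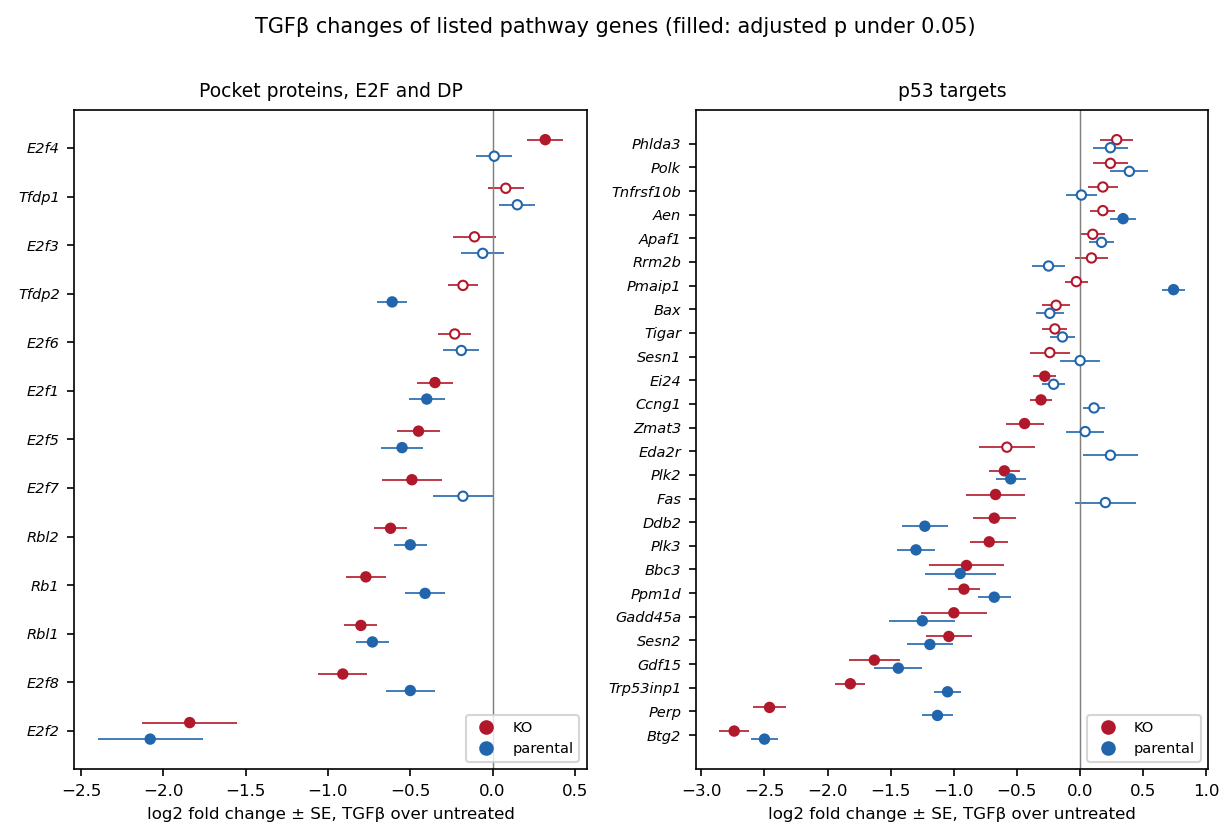
Log2 fold changes with TGFβ and their standard errors (horizontal axes) for 13 pocket protein, E2F and DP genes (left) and 26 p53 targets (right), ordered by the value in KO cells, with KO above parental in each row and filled points for an adjusted p under 0.05. E2f2 and Btg2 have the lowest values in their lists, at -1.84 and -2.74 in KO cells.

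Of 8 tested genes for p53 partners and kinases, 2 rose and 2 fell with TGFβ in each line, near the share of all tested genes called (41.4% in KO and 42.5% in parental cells), and the p53 relatives Trp63 and Trp73 had 3 counts each over all 8 libraries and were not tested. The parental count of rises was 0 without untreated parental replicate 2 or either treated parental library, and the KO count was 1 without untreated KO replicate 2 or treated KO replicate 1. The checkpoint kinase gene Chek1 fell by 0.61 in KO cells (SE 0.11, adjusted p = 0.000817) and by 0.60 in parental cells (SE 0.11, adjusted p = 0.000943). Chek2 fell by 0.48 in KO cells (SE 0.09, adjusted p = 0.00154) and by 0.36 in parental cells (SE 0.10, adjusted p = 0.0106), and the parental value missed the threshold without treated parental replicate 2 (adjusted p = 0.0974). Hipk2, a kinase gene acting on p53, rose by 0.78 in KO cells (SE 0.15, adjusted p = 0.00148), with a change of 0.01 in parental cells (adjusted p = 0.976). Usp7, the deubiquitinase gene for p53 and Mdm2, rose by 0.30 in KO cells (SE 0.09, adjusted p = 0.0214) and by 0.31 in parental cells (SE 0.09, adjusted p = 0.0198), the parental call being lost without untreated parental replicate 2 (adjusted p = 0.123) or either treated parental library (adjusted p = 0.0728 and 0.122). Mdm4, the relative of Mdm2, had a log2 fold change of -0.30 in KO cells (adjusted p = 0.139) and of -0.14 in parental cells (adjusted p = 0.509). Untreated KO cells had more Chek2 than untreated parental cells, by 0.42 (SE 0.09, adjusted p = 0.0121), which was lost without untreated KO replicate 1 (adjusted p = 0.0539) or untreated parental replicate 2 (adjusted p = 0.0532) and in a fit of the 2 untreated groups alone (adjusted p = 0.0531).

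Among 7 genes of ubiquitin ligases and their cofactors that act on cell cycle proteins, 2 rose and 1 fell with TGFβ in each line. This was 3 of 7, a share near that of all tested genes called (41.4% in KO and 42.5% in parental cells). In KO cells Fbxo31, whose product is known to target cyclin D1, had 23.5 CPM with TGFβ and 12.2 CPM without (0.94, SE 0.13, adjusted p = 0.000151), and Fbxo4 rose by 0.58 (SE 0.13, adjusted p = 0.00349). Skp2, the p27 ligase gene, fell by 0.39 in KO cells (SE 0.14, adjusted p = 0.0395), which dropped to 0.21 (adjusted p = 0.296) without untreated KO replicate 1 and missed the threshold without any 1 of the treated libraries of either line (adjusted p between 0.0617 and 0.196). In parental cells Fbxw7 rose by 0.45 (SE 0.12, adjusted p = 0.0121), Cul1 rose by 0.28 (SE 0.10, adjusted p = 0.0475) and Ambra1 fell by 0.29 (SE 0.10, adjusted p = 0.0324). Each of these 3 parental calls was lost without treated parental replicate 1 (adjusted p = 0.0888, 0.136 and 0.239) and at least 1 other library. In untreated cells Fbxo31 was lower in KO than in parental cells, by 1.09 (SE 0.13, adjusted p = 0.000317), and so was Fbxo4, by 0.59 (SE 0.13, adjusted p = 0.0107), lost without untreated KO replicate 1 (adjusted p = 0.0575). Leaving out that library also raised the count of rises with TGFβ in KO cells, otherwise 2, to 3. With TGFβ Fbxw7 was lower in KO cells, by 0.45 (SE 0.12, adjusted p = 0.028), which was lost without either treated parental library (adjusted p = 0.178 and 0.0991) or treated KO replicate 2 (adjusted p = 0.23).

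Of 6 genes known from the TGFβ growth arrest programme, 2 fell in KO cells, 3 fell in parental cells and 0 rose in either line. The share called was near that of all tested genes called in either direction (41.4% in KO and 42.5% in parental cells). As falls alone, 20.6% of all tested genes were called in KO and 21.2% in parental cells. The inhibitor of differentiation gene Id2 had 52.6 CPM in treated and 254 CPM in untreated KO cells (-2.27, SE 0.15, adjusted p = 2.44e-07), and 113 CPM in treated and 334 CPM in untreated parental cells (-1.56, SE 0.14, adjusted p = 4.47e-06). Id1 had 31.1 CPM in treated and 74.4 CPM in untreated parental cells (adjusted p = 0.00224), and its fall there was 0.66 on the log2 scale without untreated parental replicate 1. In KO cells Id1 had a log2 fold change of -0.44 (SE 0.26, adjusted p = 0.204). Myc, whose repression by TGFβ is a known step towards Cdkn2b induction, had a log2 fold change of -0.09 in KO cells (SE 0.17, adjusted p = 0.719) and of -0.04 in parental cells (SE 0.17, adjusted p = 0.875). Sp1, the GC box factor gene, fell by 0.36 in KO cells (SE 0.11, adjusted p = 0.0219) and by 0.40 in parental cells (SE 0.11, adjusted p = 0.0133). The KO call for Sp1 was lost without untreated KO replicate 2 (0.22 lower, adjusted p = 0.189) or either treated KO library (adjusted p = 0.0897 and 0.0964), and the parental call without untreated parental replicate 2 (adjusted p = 0.107) or treated parental replicate 2 (adjusted p = 0.102). With TGFβ, KO cells had less Id2 than parental cells, by 1.11 (SE 0.15, adjusted p = 0.000408).

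For each tested gene the most alike profiles were taken from 9325 genes whose average log2 CPM reached 3, by the root mean square difference of log2 CPM centred on each gene's own mean over the 8 libraries. Ccnd1 was closest to Cspp1 (0.0659) and Bc1 (0.0813), where the median gene was at 0.355. Ccnd2 was closest to Fzd5 (0.149) and Crb3 (0.176), with the median gene at 0.937. Trp53 was closest to Ncbp2 (0.0428) and Orc2 (0.0438), and Mdm2 to Smurf1 (0.0516). Cdkn2a was closest to Esrra and Yif1a, Cdkn2b to C9orf72 and Kcnab2, Cdkn2c to Hunk and Ano6, and Cdkn1b to Esyt2 and Srgap2. Cdkn1a was closest to Irf2 (0.0967) and to the pocket protein gene Rbl2 (0.109). The points share their libraries and the TGFβ contrast, so close profiles among so many candidates describe these 8 libraries only.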

How the data were processed

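The members and gene lists were chosen with earlier results of these data known. Per the submitters' processing notes, STAR 2.7.1a and featureCounts 1.6.2 were used with GRCm38 (mm10), and DESeq2 1.26.0 is also named; the sources used here do not name the annotation release or strandedness. The authors deposited raw whole-number counts for 55450 genes in each of 8 libraries, and these were analysed; their scaled copy of the same counts was not used. Symbols, positions and exonic lengths came from GENCODE M21 on GRCm38. Genes were kept with filterByExpr (minimum count 10), leaving 14641 with 99.9% of counts, with TMM scaling. The quasi-likelihood test of edgeR 4.0.16, run in R 4.3.3 over all libraries, had 1 mean for each group and left 4 residual degrees of freedom and gave 5 comparisons, each adjusted by Benjamini-Hochberg over all 14641 genes; genes were called at an adjusted p under 0.05. SE is the log2 fold change divided by the root of F. Tests were tried on simulated data. Named beside the 10 members are Agps, up to 3 called genes per list and comparison by lowest adjusted p (average log2 CPM 1 or more), and the 2 most alike genes per member (1 of them is not reported here); other genes were added after their values were seen. No set test was run. Alternatives were DESeq2 1.42.0, limma 3.58.1 voom, median-ratio and upper quartile scaling, other filters, a replicate block, fits of 2 groups and leaving out each library.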

Additional observations from a re-analysis of the deposited data

Results flagged for a closer look

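The pathway lists held 72 genes, of which Trp63 and Trp73 were not tested. Those whose TGFβ change differed between KO and parental cells were Perp, Pmaip1, Trp53inp1, Cdk6, Fbxo31 and Fbxo4. They differed by the interaction term (edgeR, adjusted over all 14641 genes), as did 2.4% of all tested genes. Of the 9 tested G1 and p53 members 0 did. The TGFβ change of Perp was lower in KO than in parental cells by 1.34 (-1.34, SE 0.17, adjusted p = 0.00298), and this call held without any 1 of the 8 libraries. For Pmaip1 the difference was -0.77 (SE 0.13, adjusted p = 0.0102), lost without treated parental replicate 1 (adjusted p = 0.0729) or treated KO replicate 2 (adjusted p = 0.0537). Trp53inp1 also had -0.77 (SE 0.16, adjusted p = 0.0304), and Cdk6 had -0.79 (SE 0.16, adjusted p = 0.0299). Fbxo31 had 1.04 (SE 0.19, adjusted p = 0.0155) and Fbxo4 0.83 (SE 0.18, adjusted p = 0.0407), both starting from a lower level in untreated KO cells. The Trp53inp1 and Fbxo4 calls were lost without 6 and the Cdk6 call without 5 of the 8 libraries in turn, with adjusted p up to 0.18 for Trp53inp1, 0.172 for Fbxo4 and 0.175 for Cdk6, and the Fbxo31 call was lost without any 1 of the 4 treated libraries, with adjusted p between 0.0517 and 0.0957.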

How the results depend on the processing

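Of 711 recomputed values of the 9 tested genes, 643 kept direction and side of the threshold, 26 lost a call, 22 gained one and 20 turned sign, all of the 20 uncalled. For Cdkn2a with TGFβ in KO cells these were 0.006 with DESeq2 and with median-ratio factors, 0.007 with upper quartile scaling, and a range of -0.138 to 0.125 leaving out single libraries. Leaving out 1 library, KO over parental untreated ranged from -0.203 to 0.421 for Ccnd2, -0.311 to 0.023 for Cdkn2a, -0.541 to 0.291 for Cdkn2b, -0.462 to 0.007 for Cdkn1a, -0.167 to 0.284 for Cdkn1b and -0.28 to 0.037 for Trp53. With TGFβ it ranged from -0.087 to 0.016 for Ccnd1 and -0.023 to 0.098 for Mdm2, and the difference of TGFβ changes from -0.263 to 0.188 for Cdkn1b and -0.235 to 0.082 for Trp53. The count of members called in the difference of TGFβ changes, 0, was 2 (2 lower) with DESeq2, 3 (1 higher, 2 lower) without a filter, 1 (lower) with voom, and 3 (1 higher, 2 lower) with the replicate block. With TGFβ, 2 members were higher in KO cells in the 2-group fit. Leaving out single libraries, calls with TGFβ ranged from 4 to 8 in parental cells (1 to 2 higher, 3 to 6 lower) and from 6 to 8 in KO cells (1 to 3 higher). KO against parental calls ranged from 1 to 2 untreated (1 to 2 higher, 0 to 1 lower) and from 0 to 3 with TGFβ (0 to 1 higher, 0 to 2 lower), and the difference from 0 to 1 (lower 0 to 1). The causes were not tested beyond the smaller number of libraries.

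Replicate numbers pair nothing in the labels, and replicate differences of the groups correlated between 0.022 and 0.308, so the replicate block is an alternative only. It called 679 genes in the difference, against 352 without the block, and added Cdkn2b and Cdkn1a with TGFβ in parental cells. Over all genes, the difference had 855 calls without a filter and 120 to 172 without single treated libraries, KO against parental with TGFβ had 1188 to 1588 without single treated libraries, against 2618, and untreated 1111 in the 2-group fit, against 2000. No scaling moved the median of all genes by over 0.1. How depth and the number of libraries each limit these calls was not tested.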

Other observations

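The untreated libraries varied more than the treated ones for the tested members. The median absolute log2 difference between replicates was 0.10 in treated KO and 0.28 in untreated KO cells, and 0.03 in treated and 0.27 in untreated parental cells. In the untreated groups, replicate 2 lay on the same side of replicate 1 in both lines for 7 of the 9 genes. Of these, Ccnd2, Cdkn2a, Cdkn2b, Cdkn1b and Mdm2 were higher and Trp53 and Cdkn2c lower in replicate 2. In the treated groups the lines were on the same side for 8 of the 9 genes. Over all tested genes, replicate differences of KO and parental cells correlated at 0.308 untreated and at 0.022 with TGFβ. The share of all tested genes on the same side was not computed. The labels do not say what a replicate number shares.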
